A study of Oryza sativa with 6 samples.

Results

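The GH3 genes of rice (Oryza sativa) encode a family of enzymes that join plant hormones to amino acids. Of 10 listed members, GH3.1 to GH3.8, GH3.11 and GH3.12, 8 were found by symbol or synonym in the probe-to-gene annotation, and they were read by 10 of the 57194 probe sets other than controls, each assigned to exactly 1 gene. GH3.3 and GH3.12 matched no entry of the gene tables and were not analysed here. GH3.7 had 3 probe sets and the other 7 genes had 1 each. They are described in young uppermost internodes, the stem segment below the panicle, in 3 samples of the wild type cultivar Nipponbare and 3 of coi1-13, which the labels call a mutant without describing its allele or background further. The labels call the samples biological replicates, do not say whether they came from separate plants, and give neither plant age nor any treatment, so p-values measure the spread between these samples. Each sample's biotin-labelled RNA was read on 1 Affymetrix rice array, 6 in all.

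GH3 enzymes act where a hormone signal is tuned. Those that conjugate auxin attach an amino acid to indole-3-acetic acid, which stores the hormone or sends it to breakdown, and several of their genes are induced by auxin itself, so the family forms a brake on the auxin response. Those that conjugate jasmonate, named JAR after the Arabidopsis gene, do the reverse for their hormone: they make jasmonoyl-isoleucine, the form that binds the COI1 receptor together with a JAZ repressor. The comparison asks how transcripts of both kinds of enzyme stand in a line named after that receptor. GH3.1, GH3.2 and GH3.8 are known auxin-conjugating enzymes of rice. GH3.4, GH3.7 and GH3.11 were placed with them by sequence in the literature. GH3.5 is JAR1, a rice enzyme known to conjugate jasmonate. GH3.3 and GH3.12, the members not matched, are also known as JAR genes, so GH3.5 alone stands for the known jasmonate class. GH3.6 was set beside GH3.5 by sequence only, and no substrate is stated for GH3.6 here. Protein sequences were not used here, so these groupings were not checked.

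Values are log2 signals as deposited, on which 1 unit is a 2-fold difference, and all arrays had been scaled to 1 level. The number of arrays, 3 per group, limits the precision. The 3 wild type arrays had medians of 5.55 to 5.56, and the 3 coi1-13 arrays of 5.62 to 5.75. Any pair of arrays of 1 genotype correlated at a Pearson's r of 0.977 to 0.980 across probe sets, and any pair of different genotypes at 0.944 to 0.946. A signal that did not exceed the brightest of its array's 33 negative control probe sets, which was 4.93 to 5.11 for wild type and 5.26 to 5.56 for coi1-13, is called not above the negative controls. Of the stem genes OSH1, CESA4, CESA7 and CESA9, a marker list added after the data were seen, all 4 were above the negative controls on every array. Of 16 panicle and anther markers, none was at 0 on all arrays, and the tapetum gene RTS stood at 14.40 ± 0.05 (SD, n = 3) in wild type, so a transcript known from anthers was bright in samples labelled as internode.

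Of the 8 GH3 genes, 4 were lower in coi1-13 and none was higher (limma, adjusted p under 0.05 over 34316 tested probe sets; the brightest probe set stands for GH3.7). GH3.2 fell to 34.2% of its wild type signal, while GH3.4, GH3.5 and GH3.7 stood at 72.5%, 80.9% and 85.0%. GH3.1, GH3.6, GH3.8 and GH3.11 did not pass. Without wild type replicate 1 the count of lower probe sets was 2 (GH3.2 and GH3.4), and without wild type replicate 2 GH3.1 was called higher. By probe set the count was 4 of 10 lower and 0 of 10 higher, beside 19.4% lower and 16.6% higher among all tested probe sets, 36.0% in either direction. By gene, where the brightest tested probe set stands for each of 16701 genes, 26.7% were lower and 21.3% higher, 48.0% together. The values of both genotypes lay wholly apart for 5 of the 10 members' probe sets (4 lower and 1 higher), beside 47.6% of all tested. The members' median log2 change was -0.14 by gene, against -0.04 over those 16701 genes. With so many genes called across the array and 8 members, the count of lower genes is not set apart from the rest by any test. At a change of at least 2-fold as well, 1 member (GH3.2) was called lower, beside 1.99% of tested probe sets.

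**Figure D1:**
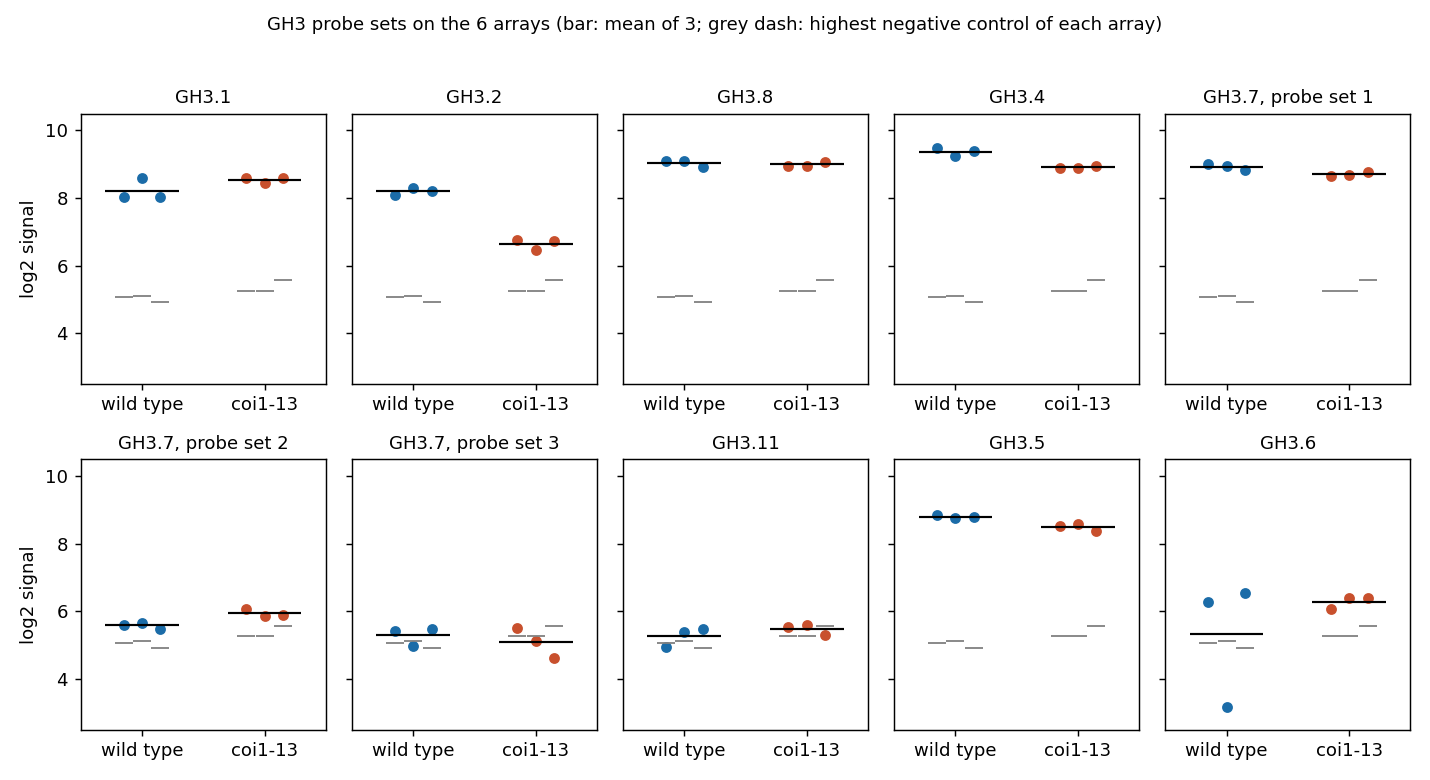
Log2 signal of each GH3 probe set on the 3 wild type and 3 coi1-13 arrays; points are arrays, black bars are group means and grey dashes are the highest negative control of each array. GH3.2 shows the widest gap between groups among the called probe sets, GH3.6 has 1 wild type array at 3.18, and probe sets 2 and 3 of GH3.7 and that of GH3.11 lie close to the negative controls.

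GH3.2, read by probe set Os.12501.1.S1_at (gene ID 4326893), encodes an auxin-conjugating enzyme that in rice is also known for a part in disease resistance. Its log2 signals were 8.08, 8.29 and 8.21 on the wild type arrays and 6.76, 6.45 and 6.73 on the coi1-13 arrays. All coi1-13 values lay below all wild type values, with a gap of 1.32 between the nearest arrays, and all 6 stood above the negative controls. The group means were 8.19 ± 0.11 and 6.65 ± 0.17 (SD, n = 3 each), a log2 change of -1.55 ± 0.14 (SE), or a 2.92-fold fall (limma adjusted p = 9.6e-06, 95% confidence interval of the change -1.85 to -1.24). Of the 34316 tested probe sets, 437 (1.27%) had a change as low or lower. When 1 array was left out the change ran from -1.60 to -1.45, and the call held each time at adjusted p-values of 0.000131 or less. In the RefSeq gene order the neighbours of GH3.2 did not move with it: the gene before it changed by 0.07 (adjusted p = 0.769) and the one after it rose by 0.35 (adjusted p = 0.000666).

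GH3.4 (gene ID 4339234) fell by a smaller amount. Its signals were 9.49, 9.24 and 9.38 in wild type and 8.89, 8.89 and 8.95 in coi1-13. The groups did not overlap, and the coi1-13 arrays lay close together, with an SD of 0.03 against 0.13 in wild type (n = 3 each). The mean went from 9.37 to 8.91, a log2 change of -0.46 ± 0.08 (SE; adjusted p = 0.000815), and the interval of -0.63 to -0.29 does not reach the size of the GH3.2 fall. Its change ran from -0.53 to -0.40 with 1 array left out, and the call held in all 6 cases.

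GH3.7 (gene ID 4341111) gave a weak and uneven reading. Its brightest probe set, Os.13846.1.S1_at, had signals of 9.01, 8.96 and 8.82 in wild type and 8.66, 8.67 and 8.76 in coi1-13, groups that were separated by only 0.06. The log2 change was -0.23 ± 0.08 (SE; adjusted p = 0.0403), and the call held in 2 of the 6 fits with 1 array left out: it was lost without any of wild type replicates 1 and 2 and coi1-13 replicates 1 and 2, at adjusted p-values of 0.131, 0.107, 0.108 and 0.0987. The second probe set, Os.13846.2.S1_x_at, pointed the other way: it read 5.60, 5.67 and 5.49 in wild type against 6.07, 5.87 and 5.88 in coi1-13, 0.35 ± 0.25 (SE) higher, which missed the threshold (adjusted p = 0.325). Probe sets with the suffix x can hold probes that match other sequences. The third, Os.13846.2.S1_at, was above the negative controls on 2 wild type arrays and 1 coi1-13 array, and its groups overlapped. With the 3 probe sets averaged the change of GH3.7 was -0.03 (adjusted p = 0.919), so a fall of the gene rests on 1 probe set.

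GH3.1 (gene ID 4327043), whose product lowers free auxin when overexpressed in rice, did not pass. It read 8.02, 8.59 and 8.04 in wild type and 8.58, 8.44 and 8.58 in coi1-13. Wild type replicate 2 lay as high as the coi1-13 arrays, and the other wild type arrays lay below all of them. The difference was 0.32 ± 0.15 (SE; adjusted p = 0.116), with a 95% confidence interval from 0.999-fold to 1.56-fold of wild type. Without wild type replicate 2 it was 0.51 and passed (adjusted p = 0.00378), so the call of GH3.1 turned on 1 array.

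GH3.8 (gene ID 4343785) is an auxin-conjugating enzyme gene that is also known as OsMGH3 and is regulated by the floral factor MADS1. Its signals of 9.11, 9.10 and 8.92 in wild type and 8.96, 8.95 and 9.08 in coi1-13 overlapped. The wild type mean was 9.04 ± 0.11 (SD, n = 3), and the mutant differed from it by -0.04 ± 0.08 (SE; adjusted p = 0.721). The interval of -0.22 to 0.13 leaves room for a fall to 85.9% or a rise to 1.10-fold, but not for a change as large as that of GH3.2 or GH3.4. MADS1 itself fell by 0.39 on the log2 scale on the same arrays (adjusted p = 3.2e-05).

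The probe set of GH3.11 (gene ID 4344247), Os.50601.1.S1_x_at, was dim. It read 4.96, 5.39 and 5.47 in wild type and 5.54, 5.61 and 5.30 in coi1-13, above the negative controls on 2 arrays of each group. The groups overlapped, and the difference of 0.21 ± 0.32 (SE) did not pass (adjusted p = 0.660).

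**Figure D2:**
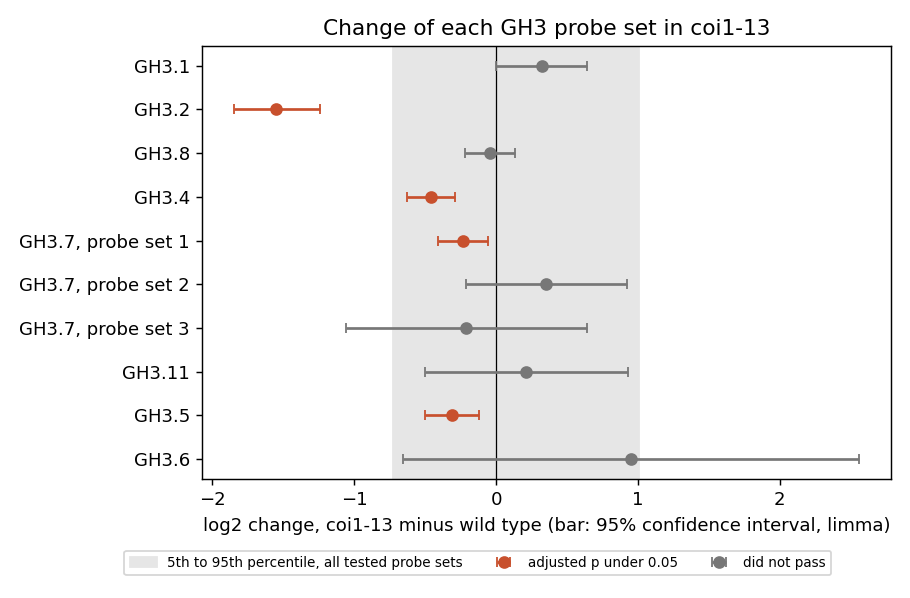
Log2 change of each GH3 probe set, coi1-13 minus wild type, with 95% confidence intervals from limma; the grey band spans the 5th to 95th percentile of all 34316 tested probe sets, -0.73 to 1.01. The interval of GH3.2 lies outside that band, and those of GH3.4, GH3.5 and the first GH3.7 probe set lie inside it and below 0.

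GH3.5, the jasmonate-conjugating JAR1, was lower in coi1-13. Its probe set, Os.21108.1.S1_at (gene ID 4339756), read 8.86, 8.77 and 8.79 in wild type and 8.53, 8.60 and 8.37 in coi1-13. All 3 coi1-13 arrays lay below all wild type arrays, by at least 0.18. The mean went from 8.81 ± 0.04 to 8.50 ± 0.12 (SD, n = 3 each), a log2 change of -0.31 ± 0.08 (SE; adjusted p = 0.0165), or a 1.24-fold fall with an interval of 70.9% to 92.2% of wild type. The call was lost without wild type replicate 1 (-0.28, adjusted p = 0.0574) and without coi1-13 replicate 3 (-0.24, adjusted p = 0.0563).

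GH3.6 (gene ID 4337780) could not be placed. It read 6.28, 3.18 and 6.55 in wild type and 6.07, 6.40 and 6.40 in coi1-13. Wild type replicate 2 was not above the negative controls, while the other 5 arrays lay between 6.07 and 6.55. The difference of 0.95 ± 0.72 (SE; adjusted p = 0.352) turned to -0.12 without that array (adjusted p = 0.750). The SD within groups, 1.33, was larger than that of 99.1% of tested probe sets.

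Set by conjugate class, with genes placed by sequence included on both sides, 3 of 6 auxin genes were lower (median log2 change -0.14) and 1 of 2 jasmonate genes (median 0.32), beside 26.7% lower among all genes. The jasmonate median is only the midpoint of GH3.5 (-0.31) and GH3.6 (0.95). The GH3.6 change turned to -0.12 without wild type replicate 2, so this median does not give the class a direction. Of those known for their substrate, 1 of 3 auxin genes was lower (median -0.04), and GH3.5 was lower by 0.31. The 3 genes known to conjugate auxin spread widest, from 0.32 in GH3.1 through -0.04 in GH3.8 to -1.55 in GH3.2. Within each array, where any scaling cancels, the log2 difference of GH3.2 from GH3.5 averaged -0.61 ± 0.15 on the wild type arrays and -1.85 ± 0.27 on those of coi1-13 (SD, n = 3 each), so GH3.2 fell by 1.24 more on the log2 scale. The groups did not overlap in this difference (wild type -0.78 to -0.48, coi1-13 -2.15 to -1.63), and the 2-sided exact permutation test gave p = 0.1, the smallest that 3 against 3 arrays allow (0.175 after Benjamini-Hochberg adjustment over 7 such comparisons). No such comparison can reach 0.05. GH3.4 fell by 0.16 more than GH3.5 (exact permutation p = 0.2), and GH3.7 by 0.07 less (exact permutation p = 0.7). The changes of GH3.1, GH3.8 and GH3.11 lay 0.63, 0.26 and 0.52 above that of GH3.5 (exact permutation p = 0.1 each), and that of GH3.6 lay 1.26 above it (exact permutation p = 0.2). These comparisons share the GH3.5 values.

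**Figure D3:**
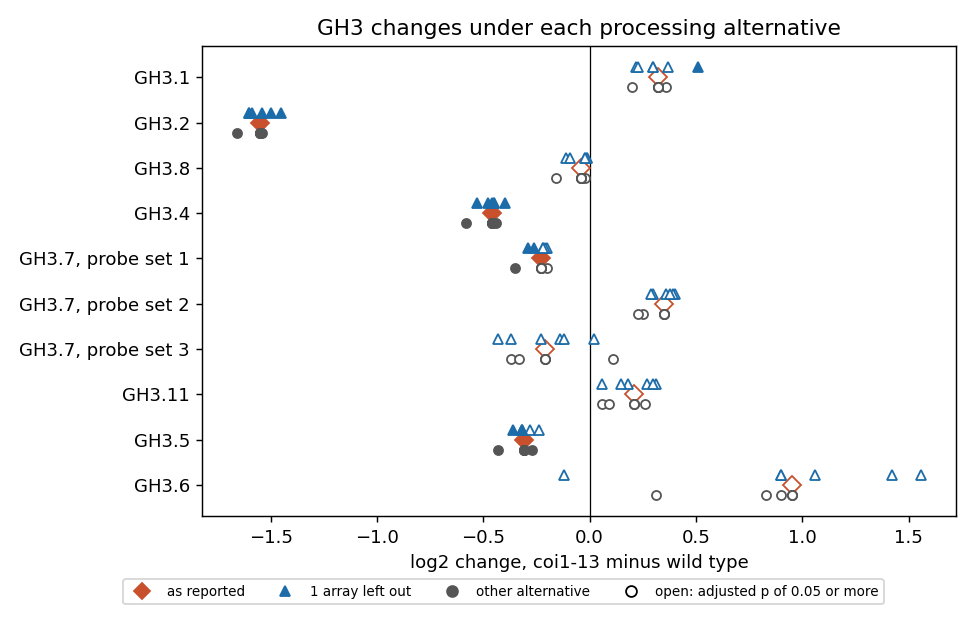
Log2 change of each GH3 probe set as reported (diamonds), with 1 array left out (triangles) and under the other alternatives that alter the fit (circles); filled symbols passed at an adjusted p under 0.05. GH3.2 is filled throughout between -1.66 and -1.45, GH3.4 is filled throughout, GH3.5 and the first GH3.7 probe set are mixed, and GH3.6 crosses 0 with 1 array left out.

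GH3.9, a family member outside the list, gave signals of 5.68, 6.36 and 5.74 in wild type and 5.42, 4.57 and 3.08 in coi1-13. The difference of -1.57 ± 0.56 (SE) did not pass (adjusted p = 0.0517), and only 1 coi1-13 array was above the negative controls. The named genes whose 6 values, centred on the wild type mean, lay nearest to those of GH3.2 among 2908 probe sets of named genes were SLP16, HSP21.9 and BURP16, with root mean square differences of 0.07, 0.17 and 0.18 and log2 changes of -1.51, -1.55 and -1.50. This likeness mostly reflects a fall of the same size between 2 groups of 3 arrays.

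Genes that make, store or move auxin, or that signal or respond to it, were counted beside the family, by the brightest tested probe set of each. No auxin receptor gene was among them. Of the 7 ILL amidohydrolase genes, whose products release auxin from the conjugates that GH3 enzymes make, 1 was lower, none was higher and 6 did not pass: ILL8 fell by 0.69 (from 10.45 ± 0.04 to 9.76 ± 0.10, SD, n = 3 each; adjusted p = 9.5e-06), while ILL7 and ILL1 differed by 0.15 and 0.14 (adjusted p = 0.0539 and 0.102). ILL7 was called higher under quantile normalization (0.17, adjusted p = 0.0376), and ILL1 without coi1-13 replicate 3 (0.20, adjusted p = 0.0321). The auxin oxidation gene DAO stood at 11.27 and 11.23 (adjusted p = 0.743). Neither of the 2 synthesis genes read, FIB and YUCCA1, passed (adjusted p = 0.177 and 0.542), though FIB was called lower under median centring (-0.25, adjusted p = 0.0379). YUCCA1 was dim, with means of 5.02 in wild type and 5.35 in coi1-13, and was above the negative controls on 2 arrays of each group.

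Of the 5 PIN auxin carrier genes, 2 were higher. OsPIN4 (also PIN5B) rose by 0.50 (adjusted p = 0.00313) and PIN5A by 0.88 (adjusted p = 0.0206), a call that was lost without wild type replicate 1, coi1-13 replicate 2 or coi1-13 replicate 3 (adjusted p = 0.0620, 0.0753 and 0.0692). PIN2 did not pass, and none of its coi1-13 values exceeded the negative controls. Auxin-responsive and auxin-signalling genes went both ways: of 24 Aux/IAA repressor genes 6 were higher and 9 lower (median -0.10), and of 17 ARF transcription factor genes 3 were higher and 9 lower (median -0.23). IAA6, IAA18 and IAA2 rose by 1.23, 0.89 and 0.74. The 1 SAUR gene matched, SAUR39, rose by 0.39 (adjusted p = 0.00654), but with arrays centred on their medians it did not pass (0.27, adjusted p = 0.0764). Over all 57 auxin genes 19 were lower, 12 higher and 26 did not pass, with a median of -0.07, beside 26.7% lower, 21.3% higher and a median of -0.04 over all genes.

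On the jasmonate side, 1 of 9 synthesis genes was lower and 2 were higher, with a median of 0.08, and none of the 3 COI receptor genes passed. Over all 12 jasmonate genes 1 was lower, 2 were higher and 9 did not pass, beside 26.7% lower and 21.3% higher among all genes. COI1A differed by -0.11 (adjusted p = 0.0581), and it was called lower under quantile normalization (adjusted p = 0.0452), under median centring (-0.23, adjusted p = 0.00243), and without wild type replicate 2 or coi1-13 replicate 3 (adjusted p = 0.0452 and 0.0436). LOX2, of the lipoxygenase family that starts the pathway, fell by 0.44 (adjusted p = 0.00193), and OPR7 and the allene oxide cyclase gene AOC rose by 0.25 and 0.15, and neither passed with arrays centred on their medians (adjusted p = 0.0923 and 0.622). No gene of the CYP94 family, which breaks down jasmonoyl-isoleucine, was matched.

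**Figure D4:**
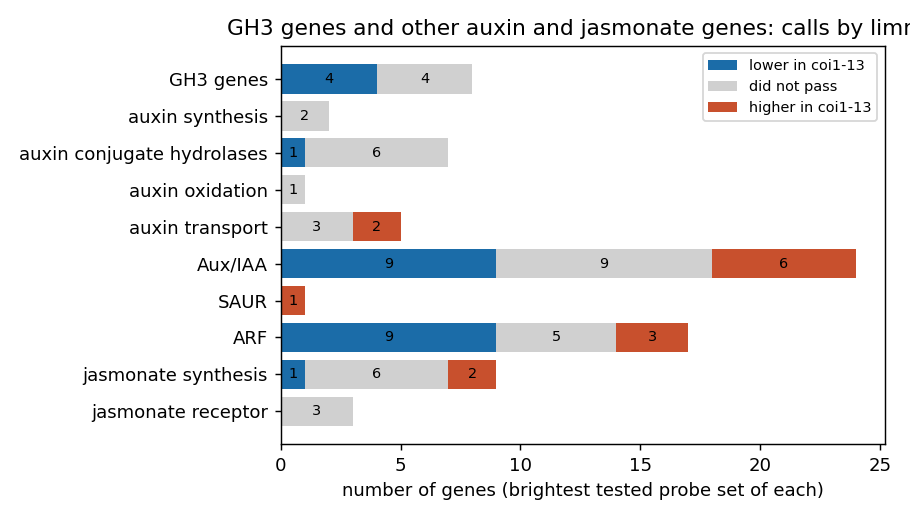
Number of genes lower, higher or not passing in coi1-13 (limma, adjusted p under 0.05) for the GH3 genes and each related list, 1 probe set per gene. GH3 genes show 4 lower and none higher, and the Aux/IAA and ARF lists hold calls in both directions.

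Markers of other tissue moved on the same arrays. Of 16 panicle and anther markers, 12 were lower and 1 was higher in coi1-13 (median -0.40), beside 26.7% lower and 21.3% higher among all genes. Their summed signal was 73319 to 74571 in wild type and 58888 to 62145 in coi1-13. Changes ran from -3.04 in CYP703A3 to 0.27 in MADS3, with PTC1 at -1.88 and EAT1 at -1.19. With 1 array left out, MADS3 and C6 kept their calls only without coi1-13 replicate 3. MADS16 lost its call without wild type replicate 3 (adjusted p = 0.0551). MADS3 did not pass under median centring (adjusted p = 0.298). Of 5 leaf markers 3 were higher and 1 lower, with summed signals of 54352 to 56250 and 64041 to 66579. The 4 stem genes were all lower (median -0.33; summed signals of 25706 to 27170 and 20471 to 21818): CESA4, CESA7 and CESA9 fell by 0.30, 0.43 and 0.37, and OSH1 by 0.17, a call lost without wild type replicate 3 or coi1-13 replicate 3 (adjusted p = 0.0765 and 0.0698). None of these markers was at 0, or not above the negative controls, on all arrays. Their part in the GH3.2, GH3.4, GH3.5 and GH3.7 results was not tested. In bulk tissue, fewer cells of a type and less RNA per cell cannot be told apart.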

How the data were processed

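Total RNA from young uppermost internodes of 3 wild type and 3 coi1-13 rice samples was read on Affymetrix arrays, per the labels' protocols. The deposited values are log2 signals of 57381 probe sets that the submitters' processing notes credit to GCOS 1.4, and other steps are not given in the sources used here. Taken as powers of 2, their mean after trimming 2% at each end was 499.96 on every array, so the arrays had been scaled to 1 level. Background correction and probe summarisation, on which dim signals depend most, cannot be changed from these values. No 2 arrays were identical.

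The 187 control probe sets (AFFX and RPTR) were left out; negative controls were the fungal, trpn and tag probe sets among them. The platform annotation gave each probe set's gene, and the RefSeq gene table (assembly ASM3414082v1) gave names and the order of genes, with all 17905 gene IDs matched. The genotypes were tested against each other by limma 3.58.1 under R 4.3.3 (lmFit and eBayes with a variance trend and no block) in the upper 60% of probe sets, those whose mean log2 signal reached 4.37, with Benjamini-Hochberg adjustment over all 34316. All 10 GH3 probe sets passed that filter. Fold changes are powers of 2 of the difference in mean log2 signal. Members and lists were chosen with earlier results of these data known. The rule for named genes took every listed member, up to 3 genes with the smallest p per related list, and the 3 named genes nearest to the most changed member; GH3.9, MADS1, RTS and the stem markers were named outside it, after their values could be seen. Matches to 4 genes that share a symbol with a list but not its function were dropped. Samples were not paired by replicate number in the main fit. Deviations from group means correlated between -0.001 and 0.001 for samples of the same number. That cannot show whether the samples were grown or processed in pairs. In data simulated from each of the 34316 probe sets' own mean and spread, 59 of 100 probe sets changed 2-fold and 45 of 100 changed 1.5-fold were called, with 3 false calls. No other probe sets were changed there, whereas 36.0% were called in the data. The adjustment was therefore stricter in the simulation, and these rates do not give the sensitivity of the real fit.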

Additional observations from a re-analysis of the deposited data

How the results depend on the processing

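GH3.2 kept its direction and its call under all 14 alternatives, and GH3.4 its direction, with its call lost only where a 2-fold change was also required. That criterion, which can only remove calls, left 1 GH3 probe set lower, 1 gene of the auxin classes and 0 of the jasmonate classes, and among the related genes 0 lower and 1 higher. With 1 array left out the GH3 probe sets called ran from 2 to 4 lower and from 0 to 1 higher (GH3.1), the auxin classes from 2 to 3 lower and 0 to 1 higher, the jasmonate classes from 0 to 1 lower, and the related genes from 16 to 21 lower and 12 to 15 higher. Without the variance trend 1 GH3 probe set was higher, the second of GH3.7 (adjusted p = 0.0322), and the call of the first was lost (adjusted p = 0.0600), as it was under quantile normalization (0.0779), without the filter on dim probe sets (0.0527) and with the replicate block (0.0744), a block that changed no other GH3 call. Centring each array on its median shifted the median change over the array by more than 0.1, from -0.01 to -0.13, and the higher share of calls from 46.0% to 28.3%. Among the related genes, this centring moved the calls from 20 lower and 14 higher to 26 lower and 6 higher, so that balance depends on the scaling. It gave changes of -1.66, -0.58, -0.43 and -0.35 for GH3.2, GH3.4, GH3.5 and the first GH3.7 probe set, all called. A pair of dim probe sets changed sign without passing: the third of GH3.7, at 0.11 with values raised to the highest negative control and from -0.43 to 0.02 with 1 array left out (0.02 without coi1-13 replicate 3), and GH3.6, from -0.12 (without wild type replicate 2) to 1.56 with 1 array left out. The cause was not tested. Signals near the negative controls limit GH3.11 and both dimmer GH3.7 probe sets, and the wild type replicate 2 value of 3.18 limits GH3.6.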
